A study of Mus musculus with 32 samples.

Results

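The 32 genes described here are markers of the cells that build the blood and lymph vessels of a tissue. They were taken by name as the rows of the gene count matrix whose Ensembl identifiers carry these symbols, and all 32 were found among its 50686 genes. They fall into 26 genes of blood endothelium, 3 genes of lymphatic endothelium (Lyve1, Prox1 and Flt4) and 3 genes of pericytes (Pdgfrb, Rgs5 and Cspg4). RNA was sequenced from interscapular brown adipose tissue (iBAT) of untreated, wild-type, male C57BL/6J mice, 10 weeks old, which had free access to food until they were killed. Groups of 4 mice were taken every 3 h through 1 day, giving 32 libraries at 8 time points from ZT0 to ZT21, where ZT (Zeitgeber time) counts hours from lights on and the dark, active phase begins at ZT12. Each mouse was sampled once, so every comparison between time points is a comparison between different animals.

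Brown fat burns fatty acids to make heat and is among the most densely vascularised tissues of the body. Endothelial cells line its capillaries, hold each other through adherens and tight junctions, answer to growth factors of the VEGF and angiopoietin families through receptor tyrosine kinases, and carry lipoprotein lipase to the vessel lumen. Pericytes wrap the capillaries from outside and are recruited by platelet-derived growth factor from the endothelium. Notch ligands and receptors separate arterial from other endothelial fates, and lymphatic endothelium is set apart by the transcription factor Prox1 and the VEGF-C receptor Flt4.

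Total counts ranged from 16300770 to 18254659 per library, with a median of 17418661, so that 3 counts in a library of median depth correspond to 0.172 CPM, the unit of counts scaled by library size that is used throughout. Sequencing lane 2 held ZT0, ZT3 and ZT6 (12 libraries), lane 3 held ZT9, ZT12 and ZT15 (12), and lane 4 held ZT18 and ZT21 (8). Lane and time of day therefore cannot be told apart in any comparison that crosses lanes, and results with lane in the model or inside a lane are given beside those over the whole day. Among the other cells a dissected pad can hold, 6 skeletal muscle genes summed to between 1.95 and 5065 CPM and exceeded 100 CPM in 19 libraries, spread over all time points. Leukocyte genes summed to at most 158 CPM, reached in mouse 3 of ZT9, and brown adipocyte genes to between 6369 and 11460 CPM. The members summed to between 2230 and 3160 CPM per library.

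The promoters of the 3 members with the lowest p for a difference between time points are shown first, since those members carry the clearest differences reported below. Each run is the 250 bases before the start of transcription in RefSeq (GRCm38.p6), read along the strand of the gene. Capitals mark any match, on either strand, to the E-box CACGTG bound by the clock factors, to GGAAGT, a form of the site of ETS factors such as Erg, or to AACAAT, a form of the site of SOX factors such as Sox17 and Sox18.
Kdr (chr5:75978456-75978705, minus strand): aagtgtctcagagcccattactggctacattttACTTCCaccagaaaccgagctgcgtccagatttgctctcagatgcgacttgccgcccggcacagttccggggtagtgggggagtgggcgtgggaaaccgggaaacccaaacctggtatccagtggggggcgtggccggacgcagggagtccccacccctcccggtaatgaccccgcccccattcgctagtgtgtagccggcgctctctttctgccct
Emcn (chr3:137340828-137341077, plus strand): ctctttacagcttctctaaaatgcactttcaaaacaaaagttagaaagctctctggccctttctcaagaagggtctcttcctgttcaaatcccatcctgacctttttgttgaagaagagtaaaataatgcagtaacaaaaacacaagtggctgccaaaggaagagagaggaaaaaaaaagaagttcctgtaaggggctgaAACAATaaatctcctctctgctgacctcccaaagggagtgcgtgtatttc
Cldn5 (chr16:18776597-18776846, plus strand): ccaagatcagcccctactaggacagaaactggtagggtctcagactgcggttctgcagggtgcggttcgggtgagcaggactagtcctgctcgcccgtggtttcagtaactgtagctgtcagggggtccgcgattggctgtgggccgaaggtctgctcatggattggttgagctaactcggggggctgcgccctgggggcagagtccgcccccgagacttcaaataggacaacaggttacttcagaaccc
The Kdr window held GGAAGT on its minus strand from base -217, the Emcn window held AACAAT from base -50, and the Cldn5 window held none of the 3 motifs. Promoter entries existed for 17 of the 32 members, with 22 promoters in all. The E-box was found in 0 of these 22 and in 6.02% of all 32851 promoters of the same length. GGAAGT was found in 6 of 22 (27.3%) against 19.7% of all promoters, and AACAAT in 3 of 22 (13.6%) against 9.42%. These matches are letters in a window and were not tied to any measurement of binding.

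Levels per length were compared first, as CPM per kilobase of annotated exon with the SD over all 32 libraries. The pericyte gene Rgs5, a regulator of G protein signalling, stood highest at 108 ± 14.8. Cdh5, the VE-cadherin of adherens junctions, followed at 59.7 ± 7.17. Both lay apart from the rest, whereas the next members, Kdr, Tie1, Eng, Esam, Pecam1, Cldn5 and Egfl7, lay between 28.6 and 20.3 with SDs that overlapped from each to the next. At the other end, Vwf (1.59 ± 0.255), which encodes the von Willebrand factor of endothelial storage granules, Flt4 (1.70 ± 0.183) and Clec14a (2.23 ± 0.405) were the lowest of the detected blood and lymphatic endothelial genes apart from Lyve1. The hyaluronan receptor Lyve1 stood at 0.763 ± 0.461, and Prox1 at 0.0375 ± 0.0355, with between 0 and 24 counts in a library and none in 2 libraries. Prox1 was the only member that failed the filter on low counts, so 31 of the 32 members were tested.

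**Figure D1:**
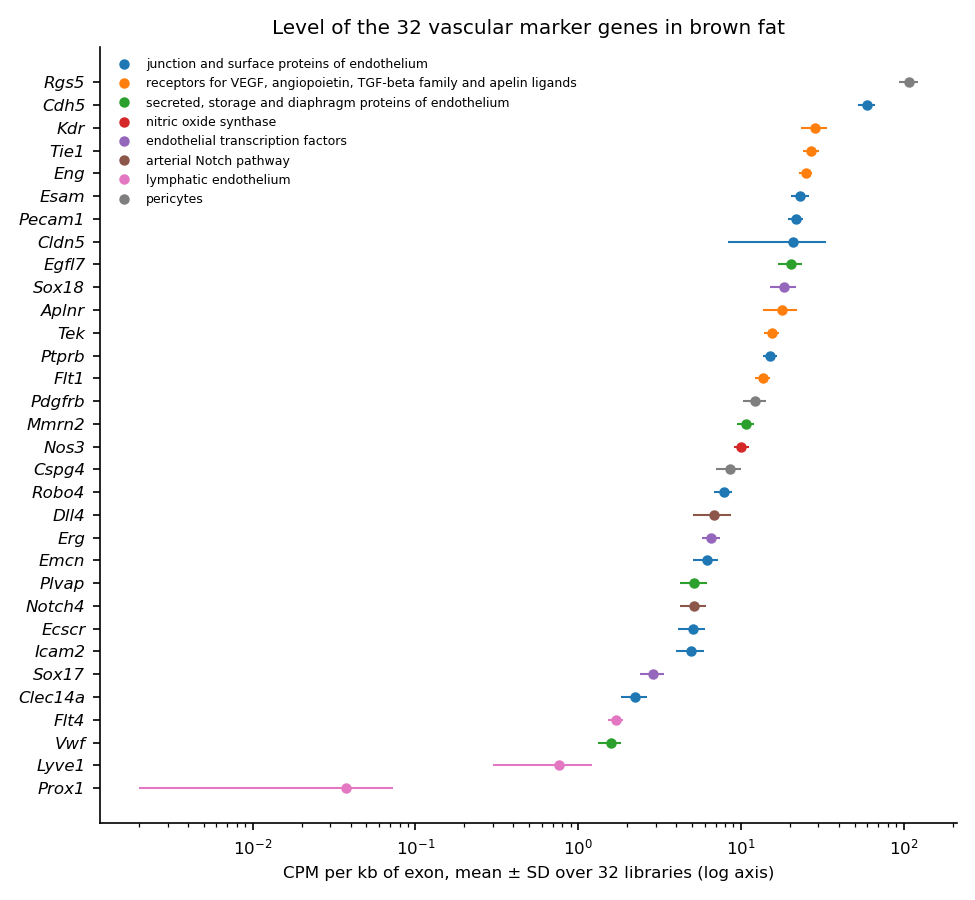
Mean level of each of the 32 members in CPM per kilobase of exon (horizontal log axis), with bars of ± 1 SD over the 32 libraries and colours for the role of the member. Rgs5 (108) and Cdh5 (59.7) stand to the right, most other members lie between about 1.59 and 28.6, and Prox1 (0.0375) lies far to the left.

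The first question was how many vascular genes changed over the day. By JTK_CYCLE, a rank test for oscillation that was also the study's method, 10 of 31 members passed P under 0.05 (32.3%), against 36.4% of the 15505 genes tested, and 9 passed after Benjamini-Hochberg adjustment, against 27.1%. The 10 were Cldn5, Flt1, Kdr, Sox17, Clec14a, Emcn, Pdgfrb, Notch4, Icam2 and Plvap, of which Plvap was lost on adjustment. A 24 h cosine fitted to the counts with edgeR passed an adjusted p of 0.05 in 11 members (35.5%, against 36.1% of all genes). The test for any difference between the 8 time points passed in 13 members (41.9%, against 39.8%). With lane in the model beside the cosine, 4 members passed (Pdgfrb, Emcn, Flt1 and Dll4; 12.9%, against 17.2%). By each of these measures the share of vascular markers that changed was close to the share of all genes. The median fitted peak-to-trough fold was 1.2 over the 31 members and 1.21 over all tested genes. The fitted peak fell in the light phase for 20 of the 31 members and for 7822 of the 15505 genes. This share was larger among the members, a difference that was not tested.

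Inside single lanes the counts were small. Between ZT0, ZT3 and ZT6 on lane 2, 3 members differed (Emcn, Pdgfrb and Cspg4; 9.68%, against 19.7% of all genes). Between ZT9, ZT12 and ZT15 on lane 3, 2 members differed (Kdr and Dll4; 6.45%, against 5.94%), and between ZT18 and ZT21 on lane 4, 2 differed (Emcn and Kdr; 6.45%, against 2.06%). In single 3 h steps, 4 members passed from ZT0 to ZT3 (Emcn, Pdgfrb, Cldn5 and Egfl7; 13.8% of all genes did), 1 from ZT12 to ZT15 (Kdr; 3.04%) and 2 from ZT18 to ZT21 (Emcn and Kdr; 2.06%). From ZT3 to ZT6, edgeR called 0 members and 2.08% of all genes, with 7 members (of 31) and 14.4% of all genes at an unadjusted p under 0.05. From ZT9 to ZT12 it called 0 members and 0% of all genes, with 1 member and 1047 genes at an unadjusted p under 0.05. In these bulk samples, fewer cells of a type and less RNA per cell cannot be told apart.

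**Figure D2:**
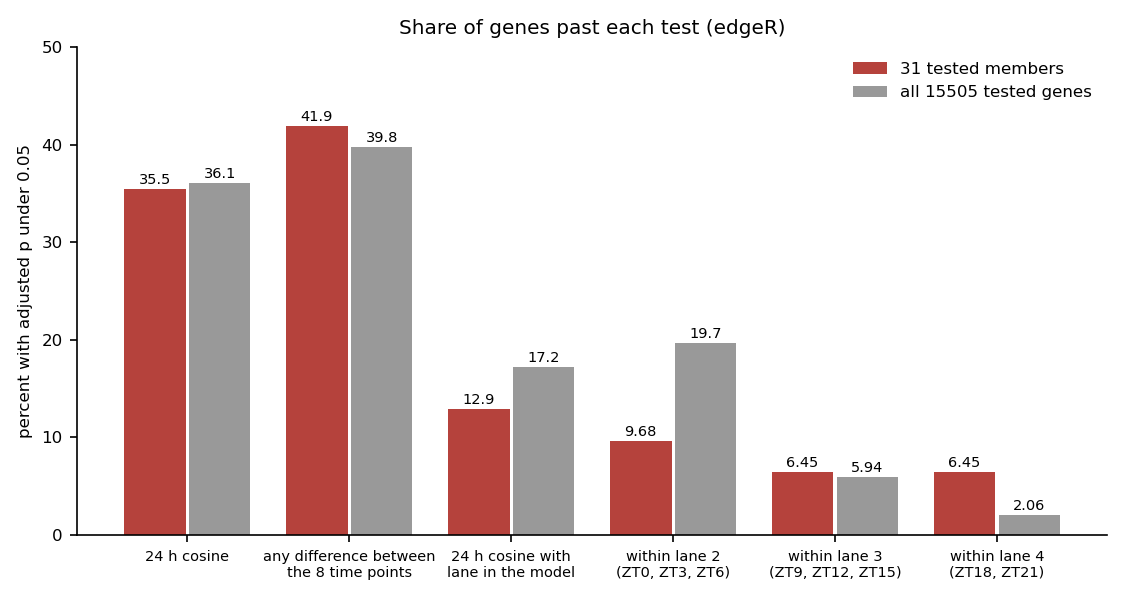
Percent of the 31 tested members (red bars) and of all 15505 tested genes (grey bars) with an edgeR adjusted p under 0.05 in each of 6 tests. The paired bars lie close together over the whole day (35.5 against 36.1 for the cosine), members lie lower within lane 2 (9.68 against 19.7), and both are under 7 within lanes 3 and 4.

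**Figure D3:**
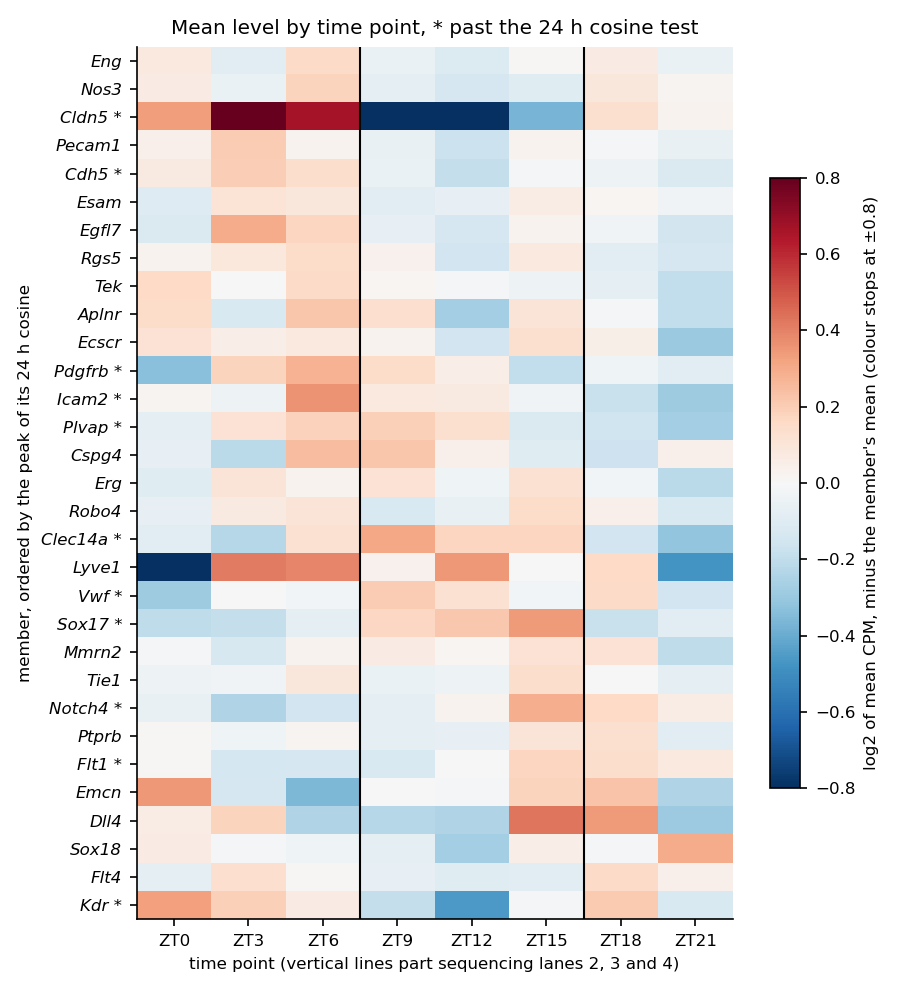
Mean level of the 31 tested members (rows, ordered by the peak of the fitted cosine) at the 8 time points (columns), as log2 of the mean CPM of 4 mice minus the mean over time points. Colour stops at ± 0.8 and an asterisk marks the 11 members that passed the 24 h cosine. Cldn5 shows the deepest colours, high at ZT3 and low at ZT9 and ZT12, and most other rows stay pale.

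Among the 10 junction and surface proteins of endothelium, 5 differed between time points (50%, against 39.8% of all genes) and 4 passed the 24 h cosine (40%, against 36.1%). Cldn5, the tight junction protein claudin-5, differed most. In the 4 mice of ZT3 its level was 49.4, 53.5, 66.0 and 79.6 CPM, and in those of ZT12 it was 9.13, 10.8, 11.6 and 12.5 CPM. Every mouse of ZT3 thus lay well above every mouse of ZT12. Here and for other members given mouse by mouse, the groups compared were picked for the highest and the lowest mean. Lack of overlap between them is therefore a description and not a test, and its share over all genes was not counted. The means were 62.1 ± 13.6 and 11.0 ± 1.43 CPM (SD, n = 4), a ratio of 5.65. The fitted cosine peaked at ZT 1.32 with an amplitude of 0.84 ± 0.15 (log2, SE), above that of 98.5% of tested genes (edgeR adjusted p = 8.98e-05 for the cosine and 5.79e-06 for any difference). ZT3 and ZT12 lie on different lanes, and with lane in the model the cosine of Cldn5 had an adjusted p of 0.967. Inside lane 2, Cldn5 was higher at ZT3 than at ZT0 by 0.91 ± 0.29 (log2, SE; edgeR adjusted p = 0.036), and its test over ZT0, ZT3 and ZT6 gave an adjusted p of 0.0558. The ZT0 group was split, with 19.8, 20.3 and 28.0 CPM in mice 1, 3 and 2 and 63.8 CPM in mouse 4. Without mouse 4 the lane 2 test gave an adjusted p of 0.000694. The step from ZT0 to ZT3 lost its call without mouse 1, 2 or 3 of ZT0 (adjusted p = 0.125, 0.0978 and 0.131) and without mouse 3 or 4 of ZT3 (0.077 and 0.11).

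Emcn, which encodes the sialomucin endomucin of capillary and venous endothelium, differed inside 2 lanes. Its levels at ZT0 were 36.0, 39.7, 45.0 and 46.9 CPM, and at ZT6 they were 23.7, 23.7, 24.2 and 31.0 CPM. The groups did not overlap, and both lie on lane 2. The lane 2 test gave an edgeR adjusted p of 1.11e-05, and the first step alone, from ZT0 to ZT3, was a fall of 0.48 on the log2 scale (log2 fold change -0.48, SE 0.09, adjusted p = 0.000918). On lane 4 it was 38.5 ± 4.50 CPM at ZT18 and 27.9 ± 1.58 CPM at ZT21 (n = 4 each; log2 fold change -0.47, SE 0.09, edgeR adjusted p = 0.00612). Emcn was thus high at ZT0 and ZT18 and low at ZT6 and ZT21. A single 24 h cosine missed the threshold (adjusted p = 0.0664), and with lane in the model it passed (0.00423). Each of the within-lane calls of Emcn held in all 32 fits that left out 1 library.

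Clec14a, a C-type lectin of endothelium, was higher through the end of the light phase. It was between 12.0 and 13.2 CPM in the mice of ZT9 and between 7.47 and 8.97 CPM in those of ZT21, without overlap (cosine peak ZT 10.4, adjusted p = 2.07e-04 by edgeR). Cdh5 was 287 ± 17.5 CPM at ZT3 and 219 ± 16.4 CPM at ZT12 (adjusted p for any difference 0.0222), and Icam2, an adhesion molecule that leukocytes bind, was 12.0 ± 2.71 CPM at ZT6 and 7.65 ± 0.381 CPM at ZT21 (0.0308). These values of Clec14a, Cdh5 and Icam2 compare different lanes, and none of the 3 genes passed inside a lane. Cdh5 and Icam2 also lost this call when libraries were scaled by size alone (adjusted p = 0.109 and 0.104), and Icam2 lost it without mouse 3 or 4 of ZT6 (0.0675 and 0.108) or mouse 2 or 4 of ZT21 (0.0559 and 0.0582). Pecam1 (CD31), the marker most used to stain endothelium, was between 121 ± 10.4 CPM at ZT12 and 157 ± 9.54 CPM at ZT3, a ratio of 1.30 that missed the threshold (edgeR adjusted p = 0.0553, but 0.0184 by the DESeq2 likelihood ratio test). Esam, Ptprb, Robo4 and Ecscr, the remaining adhesion, phosphatase and guidance proteins of this group, did not pass any of the 6 tests, with ratios between their highest and lowest time points of 1.16, 1.16, 1.20 and 1.34.

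**Figure D4:**
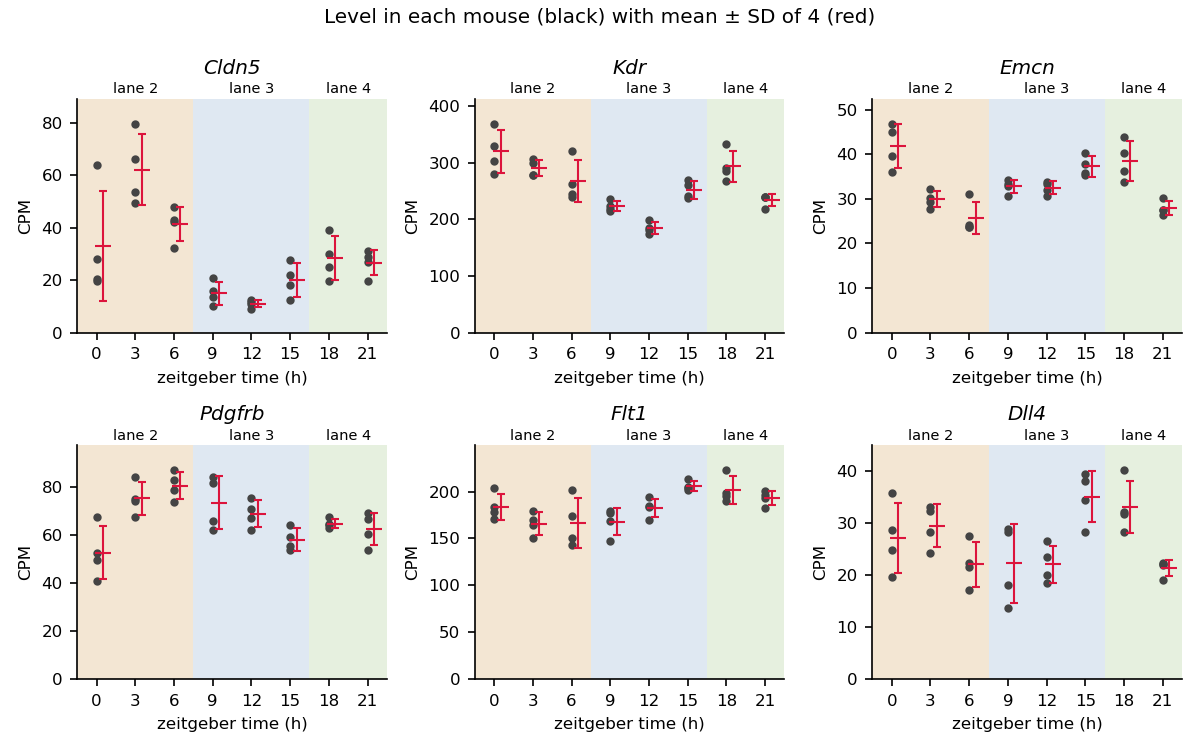
Level in CPM (vertical axes from 0) of Cldn5, Kdr, Emcn, Pdgfrb, Flt1 and Dll4 in each of the 32 mice (black points) against Zeitgeber time in hours, with the mean ± SD of the 4 mice of a time point in red and the sequencing lane as shading. Cldn5 runs from 9.13 to 79.6 CPM and drops between lanes 2 and 3, Kdr is lowest at ZT12, and Emcn falls across lane 2 and again across lane 4.

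Of the 6 receptors, 3 differed between time points (50%, against 39.8% of all genes). Kdr (VEGF receptor 2), the main signalling receptor for VEGF-A, had the lowest p of all members for a difference between time points (edgeR adjusted p = 1.08e-06). It stood at 280, 303, 329 and 369 CPM in the mice of ZT0 and at 174, 181, 184 and 198 CPM in those of ZT12. All mice of ZT0 were above all mice of ZT12, and the ratio of means was 1.73. The fitted cosine peaked at ZT 23.8 with an amplitude of 0.25 ± 0.05 (log2, SE; adjusted p = 0.000994). Those groups are on lanes 2 and 3, but Kdr also rose inside lane 3, from 185 ± 10.1 CPM at ZT12 to 252 ± 15.3 CPM at ZT15 (log2 fold change 0.45, SE 0.09, edgeR adjusted p = 0.00363). On lane 4 it fell from 294 ± 27.4 CPM at ZT18 to 234 ± 10.7 CPM at ZT21 (log2 fold change -0.33, SE 0.08, edgeR adjusted p = 0.0364). The rise on lane 3 held in all 32 fits that left out 1 library. The fall on lane 4 was lost in 7 of them, all without a library of lane 4, with adjusted p between 0.0688 and 0.153, and when libraries were scaled by size alone (0.0647) or the filter on low counts was left off (0.104).

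Flt1 (VEGF receptor 1), which binds VEGF-A tightly and signals weakly, had a smaller amplitude. It was between 202 and 213 CPM in the mice of ZT15 and between 151 and 179 CPM in those of ZT3, with no overlap and a ratio of means of 1.24. Its cosine peaked at ZT 17.6 with an amplitude of 0.16 ± 0.03 (log2, SE; edgeR adjusted p = 3.11e-04) and passed with lane in the model (0.012). The JTK P of Flt1 was 1.36e-05, second to that of Cldn5 among the members. The fitted peaks of Flt1 and Kdr were at ZT 17.6 ± 0.647 h and ZT 23.8 ± 0.779 h (SE). The difference between them was not tested, and with lane in the model the cosine of Kdr missed the threshold (adjusted p = 0.111). Inside lane 3, Flt1 had an adjusted p of 0.0788.

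Tek (TIE2), the angiopoietin receptor, ranged from 63.6 ± 1.92 CPM at ZT21 to 81.2 ± 8.68 CPM at ZT0 (adjusted p for any difference 0.0216 by edgeR, 0.149 with libraries scaled by size alone). These time points are on lanes 4 and 2, and Tek did not pass with lane in the model (0.71) or inside a lane (0.263, 0.902 and 0.569 on lanes 2, 3 and 4). Its partner Tie1, the TGF-beta family co-receptor Eng and the apelin receptor Aplnr did not pass any of the 6 tests. Their highest and lowest time points stood in ratios of 1.16, 1.20 and 1.41. Aplnr was 76.4 ± 27.3 CPM at ZT6, its highest mean.

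Of the 4 secreted, storage and diaphragm proteins, 2 passed the cosine (50%, against 36.1% of all genes) and 1 the test of any difference (25%, against 39.8%). Plvap, which forms the diaphragms of fenestrated capillaries, and Vwf passed the cosine. Plvap was 11.7 ± 2.63 CPM at ZT9 and 8.46 ± 1.83 CPM at ZT21 (cosine adjusted p = 0.00676 by edgeR, any difference 0.117). Vwf was 29.2 ± 5.14 CPM at ZT9 and 20.8 ± 2.87 CPM at ZT0 (cosine 0.0391, any difference 0.0495). These values compare different lanes. With lane in the model Plvap and Vwf had adjusted p of 0.166 and 0.104, and neither passed inside a lane, where the lowest were 0.454 and 0.195. Both calls of Vwf were near the threshold, and they were lost in 9 and 24 of the 32 fits without 1 library. Egfl7, a matrix protein secreted by endothelium, was 76.6, 81.5, 95.2 and 103 CPM in the mice of ZT3 and 62.1, 62.6, 63.3 and 72.7 CPM in those of ZT21. It passed in the step from ZT0 to ZT3 (log2 fold change 0.42, SE 0.14, edgeR adjusted p = 0.045), a call lost in 14 of the 32 fits without 1 library, with an adjusted p as high as 0.168 without mouse 1 of ZT0. It was also lost with libraries scaled by size alone (0.059) and without the filter on low counts (0.071), and ZT3 and ZT21 are on different lanes. The test of any difference missed the threshold by edgeR and passed by the DESeq2 likelihood ratio test (0.0274). Without mouse 4 of ZT0 edgeR called both any difference (0.0218) and the lane 2 test (0.0154). Exons of Egfl7 share 64 bases, 1.79% of its exon length, with the much more abundant Agpat2 on the opposite strand, and whether counting used strand is not stated. Mmrn2, another matrix protein, did not pass any of the 6 tests. Nos3, the endothelial nitric oxide synthase that sets vessel tone, was 47.0 ± 3.5 CPM at ZT6 and 37.8 ± 0.492 CPM at ZT12 (any difference 0.0592 by edgeR, 0.0433 by DESeq2). Of its exon length, 25.2% is shared with the opposite-strand gene Gm15587, which had 187 counts over all libraries against 23196 for Nos3, and 7.12% with the opposite-strand gene Atg9b, which had 4329.

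Of the 3 transcription factors, Sox17 passed the cosine and the test of any difference (33.3%, against 36.1% and 39.8% of all genes). The mice of ZT15 had 15.6, 16.8, 18.3 and 18.3 CPM and those of ZT0 had 10.0, 10.9, 13.3 and 13.5 CPM, without overlap. Its cosine peaked at ZT 12.4, at lights off (amplitude 0.24 ± 0.04, log2, SE; edgeR adjusted p = 2.83e-04). The contrast runs between lanes, and Sox17 had adjusted p of 0.622, 0.589 and 0.785 inside lanes 2, 3 and 4. Sox18 ranged from 24.6 ± 2.08 to 36.5 ± 6.16 CPM and Erg from 19.6 ± 0.292 to 24.8 ± 0.6 CPM, and neither passed.

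The 2 arterial Notch genes had their highest means at ZT15. Of these, 1 passed the cosine and 1 the test of any difference (50% each, against 36.1% and 39.8% of all genes). Dll4, the Notch ligand of arterial and tip cells, was 28.3, 34.4, 38.0 and 39.3 CPM in the mice of ZT15 and 19.1, 21.8, 22.1 and 22.3 CPM in those of ZT21, without overlap (any difference, edgeR adjusted p = 0.0086). Inside lane 3 the mice of ZT9 had between 13.6 and 28.8 CPM and those of ZT12 between 18.4 and 26.4 CPM, with an adjusted p of 0.0352 over the 3 time points. The lane 3 call was lost in 6 fits without 1 library, all of that lane: mouse 2 of ZT9 (0.0645), mice 1 and 2 of ZT12 (0.06 and 0.0617) and mice 1, 3 and 4 of ZT15 (0.0923, 0.085 and 0.139). It was also lost with libraries scaled by size alone (0.0649) and in a fit of the lane 3 libraries only (0.157). With lane in the model the cosine of Dll4 had an adjusted p of 0.0382, lost in 12 of the 32 fits without 1 library. Notch4, a Notch receptor of endothelium, was 50.7 ± 5.46 CPM at ZT15 and 35.0 ± 2.22 CPM at ZT3 (cosine peak ZT 16.5, adjusted p = 0.00782; any difference 0.113). ZT15 and ZT3 are on lanes 3 and 2, and with lane in the model the adjusted p was 0.168, with 0.668, 0.319 and 0.833 inside lanes 2, 3 and 4. Without mouse 4 of ZT6 the test of any difference gave 0.0493.

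Neither of the lymphatic members tested passed any of the 6 edgeR tests. For Lyve1 and Flt4, 0 of 2 had an unadjusted p under 0.05 in the cosine or in the test of any difference, and the DESeq2 likelihood ratio test also called 0. In the step from ZT0 to ZT3 both had an unadjusted p under 0.05, as did 30.3% of all genes, and neither passed after adjustment. The summed level of the 3 lymphatic genes was between 13.4 and 16.3 CPM at ZT0 and between 17.5 and 19.6 CPM at ZT3, without overlap on lane 2, a sum that was not tested. Lyve1 was between 0.393 and 5.74 CPM and Flt4 between 10.5 and 17.2 CPM over the 32 mice. At 7 counts in its lowest library, Lyve1 was measured with little precision, and a change of Prox1 was not detectable at this depth.

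Of the 3 pericyte members, 1 passed the cosine (33.3%, against 36.1% of all genes) and 2 the test of any difference (66.7%, against 39.8%). Pdgfrb, the receptor for platelet-derived growth factor B, rose through the first part of the light phase. The 4 mice of ZT0 had 41.1, 49.8, 52.8 and 67.5 CPM and those of ZT6 had 73.9, 78.9, 83.0 and 87.2 CPM. Both time points are on lane 2 and did not overlap. From ZT0 to ZT3 alone the log2 fold change was 0.51 (SE 0.11, edgeR adjusted p = 0.00402), the lane 2 test gave 0.000908, and the cosine with lane in the model gave 4.53e-04, the lowest of all members. All 3 calls of Pdgfrb held in all 32 fits without 1 library. Cspg4 (NG2), a surface proteoglycan of pericytes, was between 76.3 and 97.7 CPM at ZT3 and between 90.3 and 150 CPM at ZT6, which overlap. Its test of any difference (edgeR adjusted p = 0.0468) and its lane 2 test (0.0458) were near the threshold, and the lane 2 call was lost in 18 of the 32 fits without 1 library, with an adjusted p as high as 0.206 without mouse 1 of ZT6. The lane 2 call was also lost with DESeq2 size factors (0.0513), without the filter on low counts (0.0675), with the replicate number as a block (0.0674), with the skeletal muscle covariate (0.0536) and in a fit of lane 2 alone (0.136). The call for any difference was lost in 21 of the 32 fits and under 5 settings (adjusted p between 0.0508 and 0.0747). Rgs5 ranged from 441 ± 57.1 CPM at ZT12 to 544 ± 70.4 CPM at ZT6 and did not pass any of the 6 tests. Cspg4 ran against Rgs5 in some of the mice. In mice 1 to 4 of ZT6 Cspg4 was 150, 130, 108 and 90.3 CPM, and Rgs5 522, 471, 542 and 639 CPM. Mouse 3 of ZT0 had the highest Cspg4 of its group (120 CPM) and the lowest Rgs5 (396) and Pdgfrb (41.1). From mouse 2 to mouse 4 of ZT15 both genes rose (95 to 111 and 458 to 491 CPM). This relation was not tested.

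Summed over the 26 blood endothelial genes, the level was 2027 ± 88.1 CPM at ZT3 and 1739 ± 107 CPM at ZT12, its highest and lowest means, a ratio of 1.17. The 3 pericyte genes summed to 744 ± 58.7 CPM at ZT6 and 614 ± 53.3 CPM at ZT12. Neither sum was tested. The genes of other cell types moved beside some of these members. The 6 fibroblast genes, none of them at 0 in any library, summed to between 363 and 534 CPM at ZT0 and between 636 and 979 CPM at ZT3, where Pdgfrb, which fibroblasts also express, rose as well. Of the 6, 4 passed the step from ZT0 to ZT3 (Col1a1, Col3a1, Dcn and Pdgfra), against 13.8% of all genes, and their part in the rise of Pdgfrb was not tested. In the 32 fits without 1 library the step call of Pdgfra held. Those of Col1a1, Col3a1 and Dcn were lost in 6, 3 and 6 fits (edgeR adjusted p up to 0.114, 0.0656 and 0.124). The 9 leukocyte genes summed to between 31.3 and 52.4 CPM at ZT0 and between 49.9 and 81.8 CPM at ZT3, and Csf1r and Mrc1 passed in this step (2 of 9, log2 fold changes 0.88 and 0.99, edgeR adjusted p = 0.0308 and 0.0197). Their calls were lost in 5 and 4 of the 32 fits without 1 library (edgeR adjusted p up to 0.0981 and 0.0643). The part of the leukocyte genes in the results for the members was not tested.

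**Figure D5:**
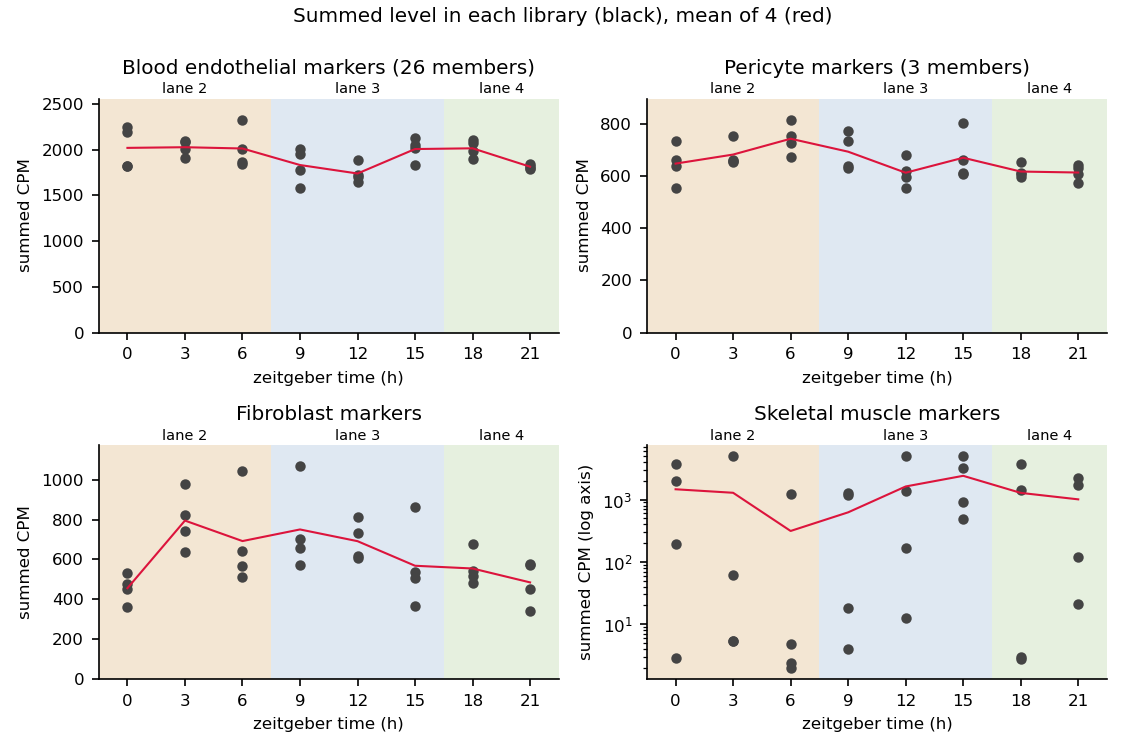
Summed CPM of 26 blood endothelial genes, 3 pericyte genes, 6 fibroblast genes and 6 skeletal muscle genes in each library (black points) against Zeitgeber time in hours, with a line through the means of 4 and lanes as shading. The skeletal muscle panel has a log axis and runs from 1.95 CPM in a library of ZT6 to 5065 CPM in a library of ZT3. The fibroblast sum is lowest at ZT0 (mean 456), and the endothelial means stay between 1739 and 2027.

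Whether vascular genes vary together from mouse to mouse was examined on log2 CPM after subtraction of the time point mean, for 6 pairs with Pecam1 over 32 mice. Cdh5 followed Pecam1 closely, with r = 0.857 and rho = 0.86 (within-time-point permutation p = 1e-05, the smallest that 100000 permutations can give; adjusted 6e-05). Pdgfrb did so with r = 0.709 and rho = 0.773 (permutation p = 6e-05 and 7e-05; adjusted 1.8e-04 for r). It was the only pericyte gene among the 6 pairs, and Rgs5 and Cspg4 were not tested against Pecam1. Without the 2 mice farthest from the median of Pecam1, r was 0.822 and 0.661. By lane the r of Cdh5 was 0.901, 0.949 and 0.544 and that of Pdgfrb 0.825, 0.877 and 0.117 on lanes 2, 3 and 4. With 8 mice, lane 4 gave exact permutation p of 0.342 and 0.653, so both relations rest on lanes 2 and 3. Kdr (r = 0.303), Lyve1 (0.274), Ucp1 of brown adipocytes (-0.311) and Ptprc of leukocytes (0.341) missed the threshold (permutation p between 0.0778 and 0.174, adjusted 0.156 to 0.174). On lanes 2, 3 and 4 the r of Kdr was 0.717, -0.104 and 0.569 (exact permutation p = 0.0265, 0.749 and 0.29, not adjusted), that of Lyve1 -0.0321, 0.528 and 0.238, that of Ucp1 0.0356, -0.487 and -0.0555 and that of Ptprc 0.521, 0.418 and -0.244, so each changed sign between lanes. Across the 465 pairs of the 31 members the median r of these deviations was 0.40, with 396 pairs above 0, and across all pairs of the 15505 genes it was 0.00. The lowest r was -0.82 over all members and -0.49 over the 26 blood endothelial genes alone, whose median was 0.45 over 325 pairs. The pairs share their libraries, so these medians are a description. The mitochondrially encoded share of counts, between 18.5% and 28.2% of a library, moved with the summed level of the members among mice of a time point, a relation examined after the data were seen (r = 0.712, within-time-point permutation p = 0.00197, and rho = 0.619, permutation p = 0.00453, over 32 mice). Without the 2 mice farthest from the median share r was 0.628. By lane r was 0.626 on lane 2 (exact permutation p = 0.0852), 0.848 on lane 3 (exact p = 0.00919) and 0.392 on lane 4 (exact p = 0.366). The part of this share in the relations between genes was not tested.

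The ligands and partners of the members' receptors were described from a list of 26 genes, of which 25 were tested. The cosine passed in 11 (44%, against 36.1% of all genes), and 13 differed between time points (52%, against 39.8%). With lane beside the cosine the share lay under that of all genes, with 2 called (Nrp1 and S1pr1; 8%, against 17.2%), and 6, 1 and 1 differed inside lanes 2, 3 and 4 (24%, 4% and 4%, against 19.7%, 5.94% and 2.06%). The highest and lowest means of Slit3, Vegfb, Apln and Bmp6 lie on different lanes, and none of these 4 passed with lane in the model or inside a lane. Slit3, a ligand of Robo receptors, peaked at ZT 12 and ranged from 11.6 ± 2.47 CPM at ZT0 to 18.8 ± 2.34 CPM at ZT9 (edgeR adjusted p = 0.00266). Vegfb, a ligand of Flt1, ranged from 129 ± 16.6 to 162 ± 5.46 CPM with its highest mean at ZT15 (0.00298), the time point at which Flt1 was also highest. S1pr1, the endothelial receptor for sphingosine 1-phosphate (0.00357), and Hes1, a Notch target (0.00469), passed both the cosine and the lane 2 test (0.0116 and 0.0079). Apln, the ligand of Aplnr, was 10.1 ± 2.35 CPM at ZT12 and 4.49 ± 1.09 CPM at ZT3 (0.00706), and Bmp6 peaked at ZT 16.9 (0.0118). Vegfa, the main ligand of Kdr and Flt1, had an adjusted p of 0.417 in the cosine and 0.0912 for any difference, with a ratio of 1.28 between its highest and lowest time points.

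Of 10 genes of lipid handling and of the capillaries of fat and muscle, among them the lipase Lpl, the transcription factors Meox2 and Tcf15 and the carbonic anhydrase Car4, Lpl alone passed the cosine (10%, against 36.1% of all genes), with 4819 ± 645 CPM at ZT12 and 2847 ± 151 CPM at ZT21 (edgeR adjusted p = 3.54e-06). These time points are on lanes 3 and 4, and with lane in the model its adjusted p was 0.748. By the test of any difference 4 of the 10 were called (Lpl, Meox2, Cav1 and Car4; 40%, against 39.8%) and 6 by the DESeq2 likelihood ratio test, and JTK called 3 at P under 0.05 (30%, against 36.4%). With lane in the model edgeR called 0, with 1 at an unadjusted p under 0.05 and 1 called by DESeq2. The tests over the time points of lanes 2, 3 and 4 also called 0, with 2, 3 and 2 at an unadjusted p under 0.05, although Meox2 passed in the single step from ZT12 to ZT15 (log2 fold change 0.79, SE 0.22, edgeR adjusted p = 0.0449), a call lost in 18 of the 32 fits without 1 library. The endothelial anchor of Lpl, Gpihbp1 (0.177), and the fatty acid transporter Cd36 (0.164) did not pass the cosine. Of 11 smooth muscle and further mural markers, 5 passed the cosine (45.5%, against 36.1% of all genes), namely Mcam (adjusted p = 0.00321), Notch3 (0.00776), Kcnj8 (0.0079), Abcc9 (0.00896) and Anpep (0.00973). With lane in the model Kcnj8 alone passed (9.09%, against 17.2%), and inside lane 2 Kcnj8 and Mcam did (18.2%, against 19.7%). The channel subunit Kcnj8, a marker that pericytes share, went from 15.0 ± 4.58 CPM at ZT0 to 26.3 ± 3.23 CPM at ZT6 inside lane 2 (adjusted p = 6.23e-04), the time points at which Pdgfrb was lowest and highest. The clock genes Arntl, Dbp, Nr1d1 and Per2, measured in the same libraries, passed the cosine in 4 of 4 cases with ratios of 29.9, 38.2, 11.7 and 16.5 between their highest and lowest time points, against 5.65 for Cldn5 and at most 2.45 for any other tested member. Of the remaining lists, the cosine passed in 4 of 9 brown adipocyte genes (44.4%, Cidec, Ucp1, Plin1 and Adipoq) and 4 of 6 fibroblast genes (66.7%, Pdgfra, Col3a1, Col1a1 and Lum), against 36.1% of all genes, and among the leukocyte genes it passed in Adgre1, Mrc1, Csf1r and Cd163. With lane in the model it passed in 1 brown adipocyte gene (Plin1; 11.1%), 2 fibroblast genes (Pdgfra and Col3a1; 33.3%) and 1 leukocyte gene (Adgre1; 11.1%), against 17.2% of all genes. Inside lane 2 the fibroblast genes Pdgfra and Col3a1 and the leukocyte genes Csf1r and Mrc1 differed, and inside lane 3 Plin1, Prdm16 and Adgre1. Adgre1 was 57.5 CPM in mouse 3 of ZT9 and at most 8.07 CPM in any other mouse, and without that mouse its calls for the cosine, the cosine with lane and lane 3 were lost (adjusted p = 0.113, 0.344 and 0.777). Of the other cosine and within-lane calls of these 3 lists, those lost most often were of Adipoq, Plin1 and Csf1r. Adipoq lost the cosine in 16 and Plin1 the cosine with lane in 18 of the 32 fits without 1 library, and Csf1r lost lane 2 in 12. The whole-day cosine passed in 0 of 6 skeletal muscle genes, 0 of 5 blood genes and 0 of 5 nerve and glia genes by edgeR and by DESeq2, with 0, 0 and 1 of them at an unadjusted p under 0.05. In the step from ZT0 to ZT3, in which Cldn5, Egfl7 and Pdgfrb rose and Emcn fell, edgeR called 0 genes of the 3 lists, with 0 of 6, 5 of 5 and 3 of 5 at an unadjusted p under 0.05, against 30.3% of all genes (13.8% called). The blood genes summed to between 471 and 855 CPM at ZT0 and between 265 and 547 CPM at ZT3, ranges that overlap, the nerve and glia genes to between 103 and 139 and between 104 and 291 CPM, and their part in the results for these members was not tested. From ZT9 to ZT12, 5 of 5 blood genes had an unadjusted p under 0.05, against 6.75% of all genes, and none was called.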

How the data were processed

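The authors mapped reads to the mouse genome with GSNAP (2017-09-11), counted reads per Ensembl gene with HTSeq (0.6.1) and deposited raw counts, so the deposited values are whole-number counts per gene, not normalized. Whether counting used strand is not given in the sources used here. Genes passing filterByExpr by time point (15505 of 50686, holding 99.9% of counts) were scaled by TMM (factors 0.923 to 1.09) and tested with edgeR (4.0.16, R 4.3.3) quasi-likelihood F tests over all 32 libraries, with Benjamini-Hochberg adjustment over all tested genes at 0.05. The tests were a 24 h cosine, the same beside lane, any difference between time points, differences inside each lane, and 3 h steps inside a lane. JTK_CYCLE was recomputed with templates of 21 and 24 h. CPM are TMM-scaled, amplitudes come from log2 CPM with a prior count of 2, and exon lengths and positions come from GENCODE M21 (GRCm38), which is not the annotation used for counting. DESeq2 (1.42.0) was an alternative. Scripts were tested on simulated data. Replicate mice of a time point differed by more than sampling noise in all 48 pairs (mean chi-square per gene 7.97 or more). Relations between genes were permuted inside time points, two-sided.

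The members, the other lists and the tests were chosen with earlier results of these data known. All 32 members were named. Single mice are given for members past a test inside a lane or the cosine beside lane, and for the 3 members with the lowest cosine p. Of other lists, up to 6 genes past the cosine were named, by p. Genes of other lists named outside this rule (Vegfa, Nrp1, Gpihbp1, Cd36, Meox2, Cav1, Car4, Tcf15, Prdm16, Dcn and Ptprc) and genes that overlap members were added after their values were seen. Of the leukocyte list, 1 gene is not reported here by itself.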

Additional observations from a re-analysis of the deposited data

Results flagged for a closer look

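In 96 groups of 4 mice (10 members given mouse by mouse and 2 summed levels, at 8 time points), 5 groups held a mouse whose gap to the nearest of the others was above Dixon's 95% limit for its share of the group's range. Chance flags about 1 group in 20, which comes to 4.8 here. Kdr at ZT21 was 218 CPM in mouse 1 and between 239 and 240 CPM in the others. At the same time point Egfl7 was 72.7 CPM in mouse 1 against 62.1 to 63.3 CPM, and Dll4 was 19.1 CPM in mouse 2 against 21.8 to 22.3 CPM. Emcn at ZT6 was 31.0 CPM in mouse 4 against 23.7 to 24.2 CPM. The summed level of the 3 pericyte genes at ZT3 was 755 CPM in mouse 1 against 656 to 664 CPM.

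Each of these gaps is set by the closeness of the other 3 mice as well as by the mouse apart. Mouse 4 of ZT6 also had the highest summed level of all members, 3160 CPM.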

How the results depend on the processing

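Members called by JTK_CYCLE numbered 10, and 9 to 12 in fits without 1 library. For the 24 h cosine the number was 11 (10 to 14 without 1 library), for any difference between time points 13 (10 to 16), for the cosine beside lane 4 (3 to 5) and for steps inside a lane 7 (5 to 9). Under the other settings these 5 counts stayed within 1.5 times. Inside single lanes they did not always. Lane 2 gave 3 members (2 to 6 without 1 library, with 6 without mouse 4 of ZT0 and 5 without mouse 1 of ZT9). Lane 3 gave 2 members, and 1 with libraries scaled by size alone, 1 in a fit of that lane alone, and 1 to 3 without 1 library (1 without mouse 2 of ZT9, mouse 1 or 2 of ZT12, or mouse 1, 3 or 4 of ZT15). Lane 4 gave 2 members, and 1 with libraries scaled by size alone, 1 without the filter on low counts, 4 in a fit of that lane alone, and 1 to 3 without 1 library (1 without any library of lane 4 except mouse 4 of ZT18). Over all genes, a fit of 1 lane alone gave 1974, 286 and 649 genes for lanes 2, 3 and 4 against 3049, 921 and 320, scaling by size alone gave 187 for lane 4, and testing without the filter gave 603 and 190 for lanes 3 and 4. Without 1 library the counts over all genes ran from 2002 to 3898 for lane 2 (2002 without mouse 3 of ZT0), from 463 to 1028 for lane 3 (472 and 463 without mouse 3 or 4 of ZT15) and from 101 to 384 for lane 4 (101 to 211 without any 1 of its 8 libraries). The cause was not tested.

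Mice with the same replicate number did not deviate together (mean r -0.03 over 112 pairs, 49 above 0.1, against 0.01 over 336 pairs with other numbers), so the numbers do not pair the mice. With the replicate number as a block, the calls were 11 for the cosine, 4 beside lane, 13 for any difference, 3, 2 and 3 inside lanes 2, 3 and 4, and 9 steps. Under the block Notch4 gained (0.0399) and Cspg4 lost (0.0747) the call for any difference, Cldn5 gained (0.0333) and Cspg4 lost (0.0674) that of lane 2, and Dll4 gained (0.0485) that of lane 4. The summed skeletal muscle level as a covariate, chosen after seeing the data, gave 11, 5, 12, 4, 3, 2 and 8 for these 7 counts, and Plvap then passed for any difference (adjusted p = 0.0223). Of the adjusted p of single members under an alternative, 7059 stayed on their side of the threshold, 124 lost and 71 gained a call, and of the step calls 236 held, 30 were lost and 0 reversed. Without 1 library, Tek, Emcn, Pecam1, Sox18 and Rgs5, which were not called in the cosine (adjusted p = 0.0521, 0.0664, 0.0898, 0.0805 and 0.262), gained a call in at least 1 fit, with lowest adjusted p of 0.0299, 0.0308, 0.0203, 0.03 and 0.0355. All 6 relations with Pecam1 and all 18 summed levels kept their side or value. Depth limits Prox1, with at most 24 counts in a library.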
